A study of Mus musculus with 9 samples.

Results

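The endothelin and adrenomedullin systems of marrow endothelium were described through 8 genes, found by their symbols among the 52183 genes of the deposited table. They were the endothelin-1 precursor Edn1, the endothelin-converting enzyme Ece1, the endothelin receptor Ednrb, the adrenomedullin precursor Adm, the receptor Calcrl and its partners Ramp1, Ramp2 and Ramp3. Each symbol matched 1 row. Ramp1 stayed below the mean level of 1 FPKM (fragments per kilobase of gene, scaled to library depth) that a gene needed to be tested, so 7 of the 8 were tested.

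Endothelin-1 is a vasoconstrictor peptide that endothelial cells make as a long precursor and that the membrane protease ECE1 cuts to its active form. It acts on the receptor EDNRA of smooth muscle and on EDNRB, which in endothelium couples to nitric oxide release and clears the peptide from the circulation. Adrenomedullin is a vasodilator peptide that endothelial cells also secrete, and its receptor is the G protein-coupled protein CALCRL joined to a membrane-spanning RAMP protein. CALCRL with RAMP2 or RAMP3 binds adrenomedullin, and CALCRL with RAMP1 binds the calcitonin gene-related peptide. In mice the adrenomedullin, Calcrl and Ramp2 genes are known to be needed for the vascular and lymphatic endothelium of the embryo.

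The RNA came from endothelial cells (BMECs) that were sorted from mouse long bones after an antibody to VE-cadherin had been given to the living animal. There were 3 libraries in each of 3 groups: aged mice labelled as Thbs1 knockouts (18 months), aged controls (18 months) and young controls (3 months). Thbs1 codes for thrombospondin-1, a matrix protein that cells secrete. The labels used here name no strain, sex or allele. They do not say whether each library came from its own mouse, so the p-values below stand for variation among libraries, which may be technical.

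The label of the first group went against its targeted gene. Thbs1 measured 25.63, 19.45 and 19.84 FPKM with the knockout label, 0.67, 0.82 and 1.17 FPKM among aged controls and 4.55, 3.89 and 4.18 FPKM among young controls. The labelled knockout group was therefore the highest of the 3 without overlap, and every direction below is that of the libraries so labelled. Whether the deposited value covers the altered part of the gene was not tested. Depth recovered from the table was 27220000 to 30400000 fragments in the libraries labelled knockout, 22160000 to 24580000 in the aged controls and 22860000 to 23890000 in the young controls. Genes above 0 numbered 21844 to 24564, 20728 to 22119 and 25153 to 26391 in the same order. The young controls thus had more such genes than either aged group. FPKM summed over all genes was 307127 to 333548, 328500 to 348398 and 311601 to 314382. The part of these library differences in the results below was not tested. The 10 endothelial markers were above 0 in every library, and their summed level was 2418.74 to 2530.4 FPKM, 2652.51 to 2799.52 FPKM and 2412.85 to 2472.66 FPKM in the same order of groups. Among them the tight junction gene Cldn5 was called in both comparisons with the aged controls, lower in the libraries labelled knockout (adjusted p = 0.00897) and higher in aged than in young controls (adjusted p = 0.0232). Its first call held in all 9 fits that left out 1 library, and its second was lost without young control replicate 1, 2 or 3 (adjusted p up to 0.113).

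Markers of other cells were read in the same libraries. With all 9 libraries in the fit, limma called genes of the stromal, adipocyte and osteoblast list only. No tested smooth muscle and pericyte, leukocyte, or megakaryocyte and erythroid marker was called in any of the 3 comparisons. The 12 stromal, adipocyte and osteoblast markers summed to 41.46 to 52.33 FPKM in the libraries labelled knockout, 43.72 to 55.79 FPKM in the aged controls and 85.91 to 128.94 FPKM in the young controls. Of the 6 that could be tested, Cxcl12, Adipoq, Ibsp and Kitl were lower in aged than in young controls, Adipoq alone was lower in the libraries labelled knockout than in aged controls, and Cxcl12 and Adipoq were lower in them than in young controls. Of all tested genes 2.8%, 2.01% and 0.127% were called lower in these comparisons, in the same order. Kitl measured 2.05 to 3.74 FPKM with the knockout label, 1.40 to 1.90 FPKM among aged controls and 3.49 to 3.98 FPKM among young controls. For Kitl the aged controls were thus the lowest group, and for Adipoq the libraries labelled knockout. Cxcl12 was the highest gene of the list. Which cells made the RNA of Cxcl12 and Kitl was not tested. The Adipoq call against aged controls (limma adjusted p = 0.0389) held only without labelled knockout replicate 3 among the 9 fits that left out 1 library (adjusted p up to 0.15 in the other 8) and was not made by limma voom (adjusted p = 0.0725). In aged against young controls such fits ended the call of Kitl in 7 of 9, of Cxcl12 in 5, and of Adipoq and Ibsp in 2 each (adjusted p up to 0.151, 0.141, 0.0678 and 0.0715). Against young controls, the libraries labelled knockout kept the Adipoq call in all 9 and lost that of Cxcl12 in 4 (adjusted p up to 0.0922). The 12 smooth muscle and pericyte markers summed to 491.91 to 534.44 FPKM, 560.21 to 606.21 FPKM and 555.02 to 603.24 FPKM. Nearly all of it came from the potassium channel gene Kcnj8 and from Abcc9, which averaged 397.7 and 148.7 FPKM over the 9 libraries. The contractile genes Acta2 and Myh11 were at most 6.85 and 1.16 FPKM, and Pdgfrb and Cspg4 averaged 0.862 and 0.0667 FPKM. The sums therefore show the levels of Kcnj8 and Abcc9 and say little about the other listed genes. Which cells made the RNA of Kcnj8 and Abcc9 was not tested. The 18 leukocyte markers summed to 46.02 to 1775.61 FPKM, 627.45 to 2453.39 FPKM and 36.3 to 559.48 FPKM, while the pan-leukocyte gene Ptprc was at most 0.13 FPKM. The immunoglobulin gene Igkc was the highest of them in most libraries. It was not in labelled knockout replicate 1 and young control replicates 1 and 2, where it measured 0.87, 6.08 and 1.40 FPKM. The 12 megakaryocyte and erythroid markers summed to 66.07 to 215.87 FPKM, 81.75 to 218.94 FPKM and 141.42 to 143.35 FPKM. At most 4 leukocyte, 2 stromal and 1 smooth muscle marker were at 0 in a library. The part of these cells in the results below was not tested.

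Setting the libraries labelled knockout against the aged controls addresses the labelled genotype at 18 months. Adm and Ednrb rose in this first comparison and no tested member fell, so 2 of 7 were called, where 4.79% of the 11796 tested genes were called, 2.78% higher and 2.01% lower. The second, of aged with young controls, asks what differs with age, and there the same pair, Adm and Ednrb, fell and no member rose, against a background of 3.99% called, 1.2% higher and 2.8% lower. The third sets the libraries labelled knockout against the young controls, which differ in both age and label, and called none of the 7 members, with none at an unadjusted p under 0.05 either and none called by limma voom, against a background of 0.212% (0.0848% higher and 0.127% lower). The first 2 comparisons share the aged controls and are therefore not independent. In bulk RNA, fewer cells of a type and less RNA per cell cannot be told apart.

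The median difference of the 7 tested members on the log2(FPKM + 1) scale was 0.84 in the first comparison, -0.58 in the second and 0.11 in the third, beside 0.002, -0.045 and -0.033 for the 11796 tested genes. In the first comparison 2 of the 7 had ranges that did not overlap between the groups, both with the labelled knockout above, where 23.2% of tested genes did not overlap, 12.1% with the labelled knockout above and 11.1% below. In the second it was 6 of 7, 5 with the aged controls below, against 35.7% (13.9% above and 21.8% below). In the third it was 1 of 7, Calcrl, with the labelled knockout below, against 22.4% (8.46% above and 14% below). The members were proposed with results of these data known, so these counts describe the genes and do not test the group. Differences on this scale understate the change of genes at a few FPKM, such as Edn1.

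**Figure D1:**
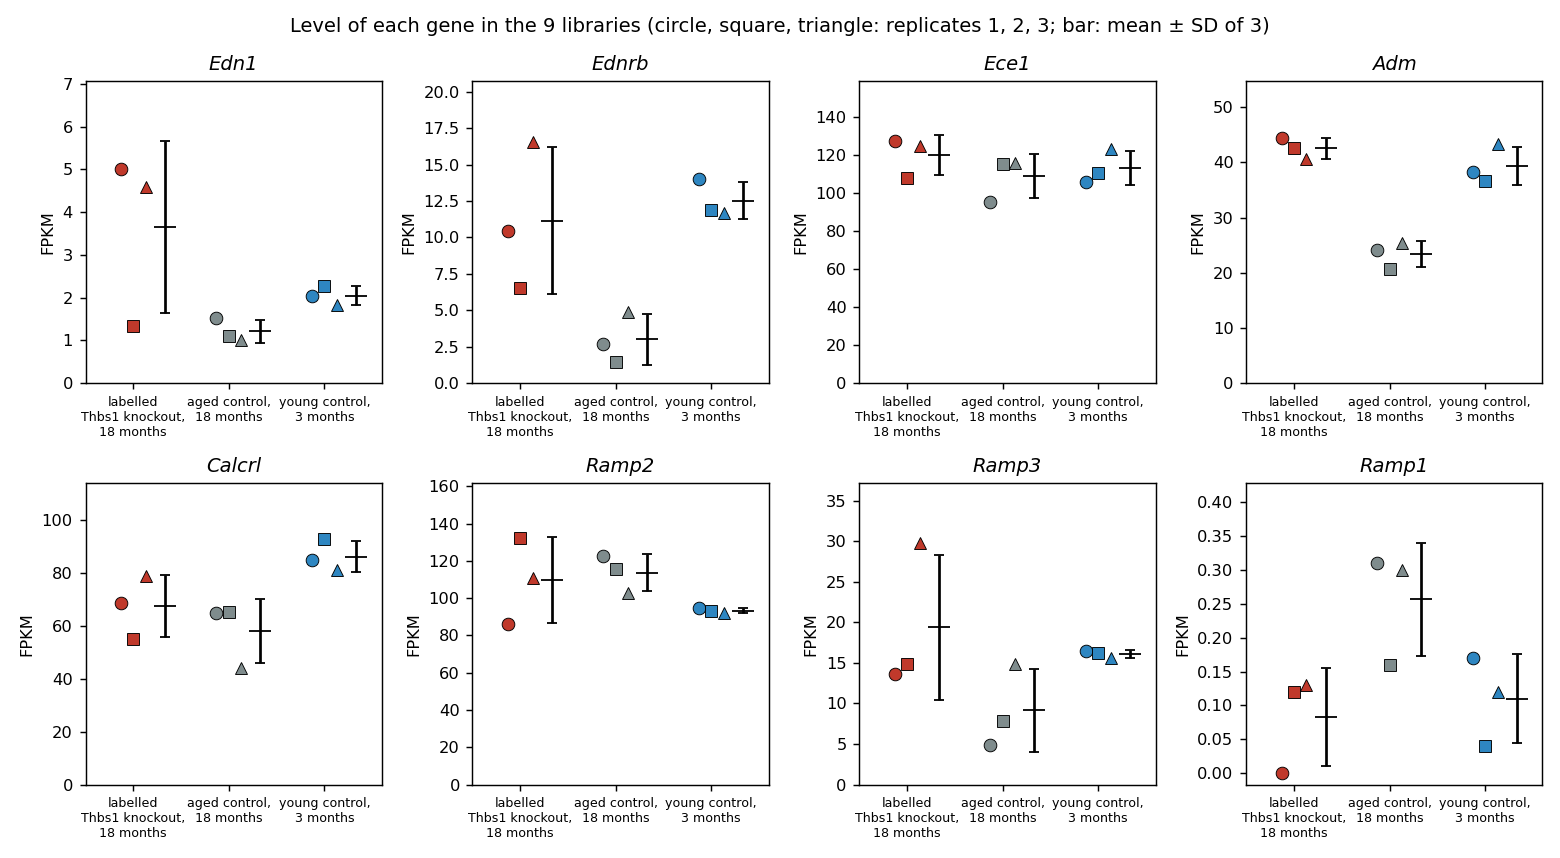
Level of each of the 8 genes in FPKM (vertical axes, each with its own range) in the 9 libraries, with the libraries labelled Thbs1 knockout at the left, aged controls in the middle and young controls at the right; symbols mark replicates 1 to 3 and the bar is the mean ± SD of 3. Adm in the aged controls (20.75 to 25.43 FPKM) lies below every other library, while the Edn1 value of 1.34 FPKM and the Ramp3 value of 29.72 FPKM stand apart from the other libraries labelled knockout.

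The 8 genes spanned a wide range of levels. FPKM is scaled by gene length, so levels of different genes can be set side by side. By their mean over the 9 libraries the order was Ece1 (113.9 FPKM), Ramp2 (105.6), Calcrl (70.5), Adm (35.1), Ramp3 (14.9), Ednrb (8.89), Edn1 (2.30) and Ramp1 (0.150). Each gene exceeded the next in this order in 9 of 9 libraries, except that Ece1 exceeded Ramp2 in 6 of 9. Over all libraries the ranges of neighbours in this order overlapped, apart from Edn1 and Ramp1. RNA of the converting enzyme was thus at a far higher level than RNA of the precursor it acts on, and RNA of Calcrl, Ramp2 and Ramp3 at higher levels than that of the endothelin receptor gene Ednrb. Protein was not measured.

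Adm, the adrenomedullin precursor (ENSMUSG00000030790, GRCm38 chromosome 7, 110627661 to 110629820, plus strand), was the member whose groups were most clearly apart. Adm measured 44.40, 42.68 and 40.62 FPKM with the knockout label, 24.06, 20.75 and 25.43 FPKM among aged controls and 38.24, 36.55 and 43.31 FPKM among young controls. Every aged control was below every other library, and the libraries labelled knockout and the young controls overlapped. The means were 42.6 ± 1.89, 23.4 ± 2.41 and 39.4 ± 3.52 FPKM (SD, n = 3 each), on 1790 to 2101, 770 to 1012 and 1353 to 1675 recovered fragments.

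Against the aged controls, Adm in the libraries labelled knockout was 1.82 times as high (log2 difference 0.84 ± 0.103 SE, 95% interval 0.61 to 1.07, limma adjusted p = 0.0036). This was rank 37 of 11796 genes by p. Refitting without any 1 of the 9 libraries kept this call (adjusted p = 0.00556 to 0.0193). In aged against young controls it was 0.595 times as high (log2 difference -0.73 ± 0.103 SE, 95% interval -0.96 to -0.50, adjusted p = 0.0146), rank 32 by p. That call was lost without young control replicate 1 (adjusted p = 0.075) and without replicate 3 (adjusted p = 0.0816) and held in the other 7 fits, and its estimate stayed between -0.79 and -0.65 in all 9. Between the libraries labelled knockout and the young controls the log2 difference was 0.11 with a 95% interval of -0.12 to 0.34 (adjusted p = 0.778). By exact permutation (two-sided) each of the first 2 comparisons gave p = 0.1, which is the smallest that 3 against 3 libraries allow. Adm lies within the antisense gene Gm28863, which averaged 0.159 FPKM. The strand setting of the counting is not given, so reads of the pair cannot be told apart. The same holds for Edn1, Ece1 and Ramp3, whose opposite-strand neighbours Gm47118, Gm13012 and Gm11978 averaged 0.0111, 0.507 and 0.0878 FPKM.

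Ednrb, the endothelin receptor of endothelium (ENSMUSG00000022122, chromosome 14, 103814625 to 103844402, minus strand), showed the largest differences among the 7 tested members in both of the first 2 comparisons. Ednrb measured 10.44, 6.53 and 16.53 FPKM with the knockout label, 2.67, 1.41 and 4.89 FPKM among aged controls and 14.00, 11.89 and 11.68 FPKM among young controls. All 3 aged controls were again below every other library, and the libraries labelled knockout spread on both sides of the young controls. Within the aged controls replicate 3 was the highest, and within the libraries labelled knockout replicate 3 was also the highest. The values rest on 847 to 1919, 138 to 513 and 1160 to 1366 recovered fragments.

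Ednrb was 3.74 times as high in the libraries labelled knockout as in the aged controls, with means of 11.2 ± 5.04 and 2.99 ± 1.76 FPKM (SD, n = 3 each, log2 difference 1.62 ± 0.340 SE, 95% interval 0.86 to 2.38, limma adjusted p = 0.0284). The call held without aged control replicate 3 or labelled knockout replicate 2 and was lost in the other 7 fits that left out 1 library. The adjusted p was 0.0518, 0.053 and 0.0536 without young control replicates 1, 2 and 3, 0.0707 and 0.0599 without aged control replicates 1 and 2, and 0.103 and 0.0949 without labelled knockout replicates 1 and 3. The estimate stayed between 1.30 and 1.95 in all 9. In aged against young controls Ednrb was 0.239 times as high, with means of 2.99 ± 1.76 and 12.5 ± 1.28 FPKM (log2 difference -1.85 ± 0.340 SE, 95% interval -2.61 to -1.09, adjusted p = 0.0347). Of 9 such fits 5 ended that call, with an adjusted p of 0.141, 0.112 and 0.113 without young control replicates 1, 2 and 3, and of 0.0516 and 0.0513 without aged control replicates 1 and 2. Testing all genes above 0 in place of those that reached 1 FPKM also ended both calls (adjusted p = 0.129 and 0.114), as did fitting only the 6 libraries of the first comparison for that comparison (adjusted p = 0.0989). Between the libraries labelled knockout and the young controls the 95% interval was -0.99 to 0.53 (adjusted p = 0.867).

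Edn1, the precursor of endothelin-1 (ENSMUSG00000021367, chromosome 13, 42301476 to 42307990, plus strand), was called in none of the 3 comparisons. Edn1 measured 5.02, 1.34 and 4.58 FPKM with the knockout label, 1.52, 1.10 and 1.01 FPKM among aged controls and 2.04, 2.27 and 1.82 FPKM among young controls. Replicates 1 and 3 labelled knockout were the highest of the 9 libraries, while replicate 2 lay within the aged controls. Replicate 2 labelled knockout also had the highest leukocyte marker sum of its group, 1775.61 FPKM against 46.02 and 649.3 FPKM. Most of that sum was Igkc, at 1618.47 FPKM, while Ptprc there was 0.03 FPKM. Among aged controls replicate 1 had the highest sum, 2453.39 FPKM, and the highest Edn1 value. Among young controls replicate 3 had the highest sum, 559.48 FPKM, and the lowest Edn1 value. The part of such RNA in the Edn1 values was not tested.

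The labelled knockout mean of Edn1 was 3.65 ± 2.01 FPKM and the aged control mean 1.21 ± 0.272 FPKM (SD, n = 3 each, log2 difference 0.96 ± 0.308 SE, 95% interval 0.27 to 1.65, limma adjusted p = 0.1). Without labelled knockout replicate 2 the log2 difference was 1.40 and passed (adjusted p = 0.00175), and in the other 8 fits that left out 1 library it did not pass. The aged controls were all below the young controls, which averaged 2.04 ± 0.225 FPKM, but the difference did not pass (log2 difference -0.47, 95% interval -1.15 to 0.22, adjusted p = 0.349). Libraries held only 87 to 301, 53 to 72 and 93 to 111 recovered Edn1 fragments in the groups labelled knockout, aged and young, so this is the member measured with the fewest fragments among the 7 tested.

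Ece1, which cuts the endothelin precursor (ENSMUSG00000057530, chromosome 4, 137862237 to 137965229, plus strand), stayed within a narrow range. Ece1 measured 127.29, 107.68 and 124.70 FPKM with the knockout label, 95.28, 115.40 and 115.41 FPKM among aged controls and 105.71, 110.35 and 123.20 FPKM among young controls. The 3 groups overlapped one another. The 95% intervals were -0.11 to 0.39 for labelled knockout minus aged control, -0.31 to 0.19 for aged minus young control and -0.17 to 0.33 for labelled knockout minus young control on the log2 scale (limma adjusted p = 0.47, 0.766 and 0.855).

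The 300 bases around the annotated starts of Adm, Ednrb and Edn1 are shown because the first pair moved together in the first 2 comparisons and Edn1 encodes the ligand of the Ednrb receptor. The sequences are from RefSeq on GRCm38.p6, run 5′ to 3′ on the gene's own strand from 250 bases before the start to 50 after it, and cover chr7:110627407-110627706 (plus strand), chr14:103843652-103843951 (minus strand) and chr13:42301226-42301525 (plus strand). Capitals mark matches on either strand to ACGTG, the core of the hypoxia response element, to TGACTNA, a form of the AP-1 site, to AGATAA, which GATA factors bind, or to TATAA, the TATA box. The letters of these motifs were chosen with the sequences in view.
Adm: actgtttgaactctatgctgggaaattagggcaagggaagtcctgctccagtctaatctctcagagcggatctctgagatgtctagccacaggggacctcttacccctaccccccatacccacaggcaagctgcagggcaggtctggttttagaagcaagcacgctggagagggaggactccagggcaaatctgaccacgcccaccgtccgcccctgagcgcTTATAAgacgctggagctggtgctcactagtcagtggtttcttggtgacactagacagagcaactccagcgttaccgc
Ednrb: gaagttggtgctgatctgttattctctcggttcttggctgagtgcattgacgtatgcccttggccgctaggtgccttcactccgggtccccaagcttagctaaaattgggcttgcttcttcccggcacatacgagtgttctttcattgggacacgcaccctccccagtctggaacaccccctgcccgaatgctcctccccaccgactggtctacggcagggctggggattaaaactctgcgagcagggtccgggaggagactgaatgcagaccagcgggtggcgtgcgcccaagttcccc
Edn1: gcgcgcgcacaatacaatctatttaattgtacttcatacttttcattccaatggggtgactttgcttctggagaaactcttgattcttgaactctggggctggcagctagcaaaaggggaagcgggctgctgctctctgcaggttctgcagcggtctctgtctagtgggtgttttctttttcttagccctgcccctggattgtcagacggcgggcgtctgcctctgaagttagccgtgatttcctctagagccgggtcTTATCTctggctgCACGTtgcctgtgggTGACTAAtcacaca
The Adm window holds TATAA on both strands as 1 overlapping run, from 28 bases before the start, with no other match, and 24.9% of the 32851 RefSeq promoter windows hold that motif. The Edn1 window holds AGATAA on the minus strand from base 9 after the start, ACGTG on the minus strand from base 22 and TGACTNA on the plus strand from base 37, none overlapping another, and these motifs occur in 11.2%, 19.6% and 13.9% of all windows. The Edn1 matches lie after the RefSeq start, and the RefSeq start of Ednrb lies inside the gene as GENCODE draws it. The Ednrb window holds none of these letters, which says nothing about the factors themselves. Of the 8 genes 7 had a RefSeq window, and Ramp2 is named only.

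**Figure D2:**
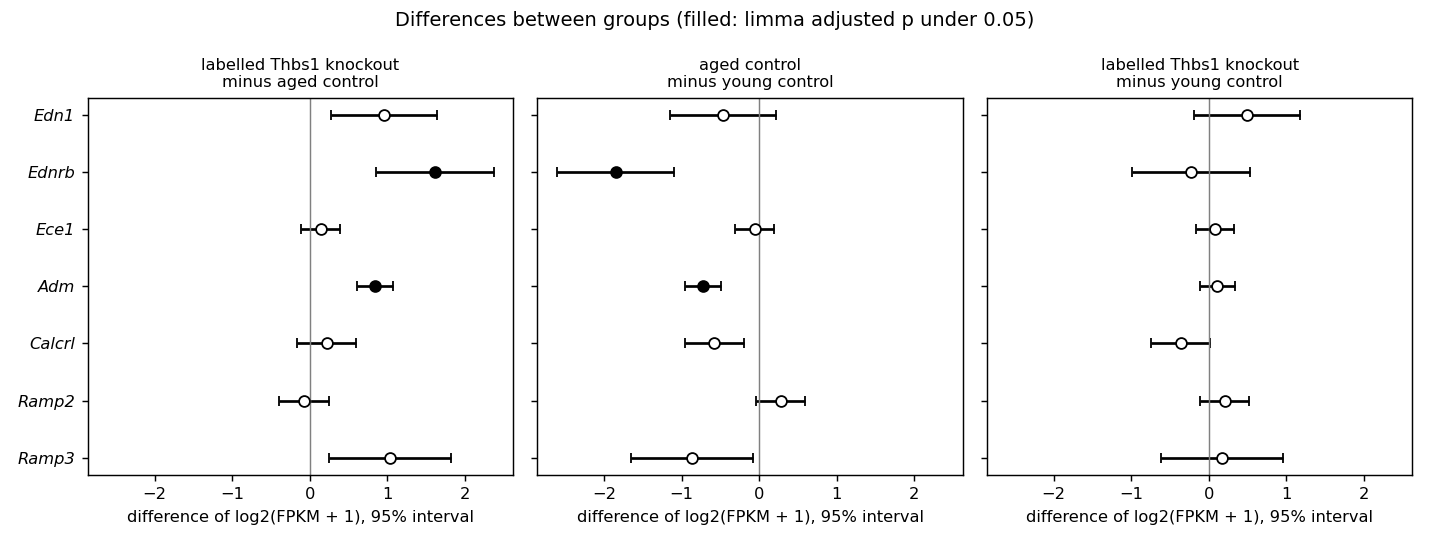
Difference of the mean log2(FPKM + 1) between groups (horizontal axes) with its 95% interval for the 7 tested genes (rows) in the 3 comparisons, filled where the limma adjusted p was under 0.05. Adm (0.84 and -0.73) and Ednrb (1.62 and -1.85) are the filled points, in the panels for labelled knockout minus aged control and aged minus young control, and no point is filled at the right.

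Calcrl, the receptor that the RAMP proteins join (ENSMUSG00000059588, chromosome 2, 84330626 to 84425411, minus strand), differed most between the ages. Calcrl measured 68.57, 55.08 and 78.64 FPKM with the knockout label, 64.75, 65.33 and 44.13 FPKM among aged controls and 84.60, 92.53 and 81.14 FPKM among young controls. The young controls were above all 6 other libraries, and the libraries labelled knockout and the aged controls overlapped. Aged minus young control gave a log2 difference of -0.58 ± 0.170 SE (95% interval -0.96 to -0.20, limma adjusted p = 0.0766), which did not pass. Labelled knockout minus aged control gave 0.22 (95% interval -0.16 to 0.60, adjusted p = 0.461), and labelled knockout minus young control -0.36 (95% interval -0.74 to 0.02, adjusted p = 0.553).

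Ramp2, the partner that makes the main adrenomedullin receptor of blood vessels (ENSMUSG00000001240, chromosome 11, 101246028 to 101259546, plus strand), was high in every library. Ramp2 measured 85.95, 132.02 and 110.66 FPKM with the knockout label, 122.58, 115.78 and 102.95 FPKM among aged controls and 94.97, 92.94 and 92.23 FPKM among young controls. The aged controls were all above the young controls, opposite to Calcrl, and the libraries labelled knockout spread over both. No comparison passed, with 95% intervals of -0.39 to 0.25, -0.04 to 0.60 and -0.11 to 0.53 in the order labelled knockout minus aged, aged minus young and labelled knockout minus young (adjusted p = 0.798, 0.233 and 0.693). The direction of labelled knockout minus aged is not settled, since its estimate ran from -0.22 to 0.09 when 1 library was left out.

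The Ramp2 level carries a reservation about its neighbour. The annotated exons of Ramp2 and of Vps25, an endosomal sorting gene on the same strand, share 1103 bases, which is 33.4% of the Ramp2 and 67.2% of the Vps25 exon length, through a Ramp2 transcript that runs on into Vps25. Vps25 was given 0.19 to 0.84 FPKM in the 9 libraries. How reads in the shared bases were assigned was not tested, so the Ramp2 level relative to other genes is uncertain.

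Ramp3, the other adrenomedullin partner (ENSMUSG00000041046, chromosome 11, 6658521 to 6677475, plus strand), varied widely within both aged groups. Ramp3 measured 13.61, 14.85 and 29.72 FPKM with the knockout label, 4.87, 7.87 and 14.83 FPKM among aged controls and 16.51, 16.20 and 15.59 FPKM among young controls. The young controls were nearly equal, and aged control replicate 3 reached the level of the libraries labelled knockout. That library also had the highest Ednrb value of the aged controls, and labelled knockout replicate 3, at 29.72 FPKM, had the highest Ednrb value of all 9.

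Labelled knockout minus aged control gave a Ramp3 log2 difference of 1.04 ± 0.351 SE (95% interval 0.25 to 1.82, limma adjusted p = 0.115), and aged minus young control gave -0.87 ± 0.351 SE (95% interval -1.65 to -0.08, adjusted p = 0.147). Neither passed. Without aged control replicate 3 the first was 1.41 and passed (adjusted p = 0.0416), and the second was -1.24 and did not (adjusted p = 0.0735). Labelled knockout minus young control had a 95% interval of -0.61 to 0.95 (adjusted p = 0.914).

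Ramp1, the partner for the calcitonin gene-related peptide (ENSMUSG00000034353, chromosome 1, 91179822 to 91225196, plus strand), was close to the limit of detection. Ramp1 measured 0, 0.12 and 0.13 FPKM with the knockout label, 0.31, 0.16 and 0.30 FPKM among aged controls and 0.17, 0.04 and 0.12 FPKM among young controls. At this low level the libraries labelled knockout were all below the aged controls, and the young controls overlapped both. These values stand for 0 to 11, 11 to 22 and 3 to 12 recovered fragments. The library at 0 could hold a level of up to 0.0354 FPKM, what 3 fragments would give there. Such limits cover counting error only, and fragments without molecular identifiers are not independent molecules.

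The make-up of the partner pool was compared as the share of each Ramp gene in the summed FPKM of the 3, which does not depend on library scaling. Ramp3 made up 13.7%, 10.1% and 21.2% with the knockout label, 3.81%, 6.36% and 12.6% among aged controls and 14.8%, 14.8% and 14.4% among young controls. The aged controls were all below the young controls, and the other pairs of groups overlapped. Mean shares were 15.0% ± 5.64, 7.58% ± 4.50 and 14.7% ± 0.215 (SD, n = 3 each). The difference was 7.40 percentage points for labelled knockout minus aged control (two-sided exact permutation p = 0.2) and -7.11 points for aged minus young control (exact p = 0.1, the smallest that 3 against 3 allow). Both had p = 0.3 after Benjamini-Hochberg adjustment over the 9 shares compared by exact permutation. Ramp2 made up nearly all of the rest, with mean shares of 85.0% ± 5.65, 92.2% ± 4.52 and 85.2% ± 0.206, and Ramp1 at most 0.254%. The reservation about exon bases shared by Ramp2 and Vps25 applies to the size of all these shares.

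The ratio of Ramp2 to its receptor Calcrl was 1.25, 2.40 and 1.41 with the knockout label, 1.89, 1.77 and 2.33 among aged controls and 1.12, 1.004 and 1.14 among young controls. The aged controls were all above the young controls. Replicate 2 labelled knockout lay with the aged controls in this ratio, as in its Edn1 level. The size of the ratio carries the same reservation about Vps25.

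**Figure D3:**
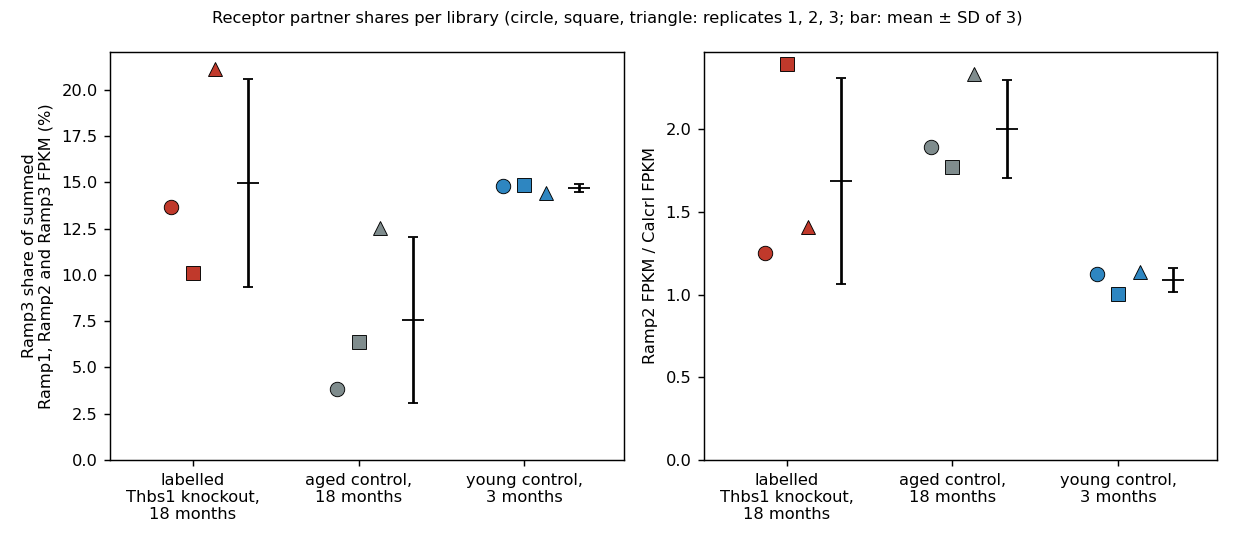
Share of Ramp3 in the summed FPKM of Ramp1, Ramp2 and Ramp3 in percent (left axis) and ratio of Ramp2 to Calcrl FPKM (right panel) in each library, with libraries labelled Thbs1 knockout, aged controls and young controls from left to right; symbols mark replicates 1 to 3 and the bar is the mean ± SD of 3. The young controls lie close together (14.4% to 14.8%), and the aged controls spread from 3.81% to 12.6%.

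Other genes of the 2 ligand and receptor systems were mostly near 0. The endothelin genes Edn2 and Edn3 reached at most 0.09 and 0.03 FPKM, the adrenomedullin relative Adm2 0.08 FPKM, the calcitonin and CGRP genes Calca and Calcb 0.26 and 0.20 FPKM, and the calcitonin receptor Calcr 0.10 FPKM. Ednra, the endothelin receptor of smooth muscle and pericytes, measured 0.14, 0.12 and 0.06 FPKM with the knockout label, 0.17, 0.13 and 0.07 FPKM among aged controls and 0.81, 0.41 and 0.41 FPKM among young controls. The young controls were above the other 6 libraries at this low level. So they were for the contractile gene Acta2, at 3.11, 0.26 and 0.76 FPKM, 1.55, 1.05 and 2.97 FPKM, and 6.85, 4.89 and 3.41 FPKM in the same order. Other genes of the smooth muscle and pericyte list did not all follow. Myh11 overlapped between the groups (young controls 1.16, 0.36 and 0.78 FPKM, aged controls 0.44, 0.18 and 0.60 FPKM), and Kcnj8 was highest in the aged controls. The part of such cells in the Ednra level was not tested. Mme, the peptidase neprilysin that degrades endothelin, was at most 0.46 FPKM.

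Among the genes above the filter, Gpr182, an endothelial receptor once taken for an adrenomedullin receptor and now known to bind chemokines, averaged 193.2 ± 16.2, 219.4 ± 13.4 and 170.5 ± 6.62 FPKM in the libraries labelled knockout, aged controls and young controls (SD, n = 3 each). None of its differences passed (limma adjusted p = 0.26, 0.0593 and 0.606 for labelled knockout minus aged, aged minus young and labelled knockout minus young). Ackr3, a scavenger receptor for adrenomedullin and CXCL12, averaged 3.74 ± 0.755, 2.16 ± 0.704 and 4.29 ± 0.914 FPKM. Its aged controls were all below the other libraries, and no difference passed (adjusted p = 0.101, 0.0587 and 0.837). Pam, the enzyme that amidates adrenomedullin, averaged 4.24 ± 0.517, 3.88 ± 0.228 and 4.67 ± 0.249 FPKM, and Ece2, a relative of Ece1, 1.59 ± 0.212, 1.81 ± 0.381 and 1.33 ± 0.0611 FPKM, and neither passed in any comparison.

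Of the 29 listed genes for other endothelin ligands, receptors, proteases and G protein signalling, 24 were tested. In labelled knockout against aged control 1 rose and 1 fell, where 2.78% of all tested genes were called higher and 2.01% lower. Gna13, a G protein subunit that endothelin receptors can use, rose to 26.3 ± 2.30 FPKM under the knockout label, against 16.1 ± 2.53 FPKM in aged controls (limma adjusted p = 0.0206). Rgs4, which shortens G protein signals, fell to 1006 ± 203.9 FPKM under the knockout label, against 1491 ± 96.5 FPKM in aged controls (adjusted p = 0.043), and was the highest gene of the list. In aged against young controls Gna13 (16.1 ± 2.53 against 24.0 ± 2.97 FPKM, adjusted p = 0.0491) and the phospholipase Plcb4 (3.51 ± 0.677 against 6.53 ± 0.0473 FPKM, adjusted p = 0.0474) fell and none rose. There 1.2% of all tested genes were called higher and 2.8% lower. The list medians were 0.08 and -0.02. Leaving out 1 library ended these calls in 3 of 9 fits for the rise of Gna13 (adjusted p = 0.0174 to 0.0901), 8 for Rgs4 (0.00474 to 0.158), 6 for the fall of Gna13 (0.0403 to 0.18) and 7 for Plcb4 (0.0196 to 0.159).

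Of the 29 listed genes for other adrenomedullin and CGRP ligands, receptors and cyclic AMP signalling, 18 were tested. In labelled knockout against aged control 1 of them rose, and in aged against young controls 1 fell. Beside these, 2.78% of all tested genes were called higher in the first and 2.8% lower in the second. Pde4b, which degrades cyclic AMP, the second messenger of adrenomedullin, was the gene called in both of the first 2 comparisons. Pde4b measured 9.90, 4.22 and 9.40 FPKM with the knockout label, 1.63, 1.08 and 1.59 FPKM among aged controls and 8.15, 5.80 and 6.58 FPKM among young controls. All aged controls were below the other libraries, as for Adm and Ednrb. The log2 difference was 1.79 ± 0.258 SE for labelled knockout minus aged control (limma adjusted p = 0.0065) and -1.69 ± 0.258 SE for aged minus young control (adjusted p = 0.0182). The first call held in all 9 fits that left out 1 library (adjusted p = 0.000383 to 0.0299), and the second was lost in 3, without any of the young controls (adjusted p up to 0.0948). No other tested gene of the list was called in either, the list medians were 0.15 and -0.195, and the highest gene, the small G protein Rap1b, did not pass (adjusted p = 0.243 and 0.126). Pde3b of the same list was below the filter and was not tested. It measured 0.72 to 1.63 FPKM with the knockout label, 0.10 to 0.16 FPKM among aged controls and 1.27 to 1.32 FPKM among young controls. Its aged controls were also below the other libraries. Other untested genes of the list did not all follow, and Adcy3 overlapped between all groups.

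Of 25 genes of other vasoactive systems (angiotensin, natriuretic peptides, kinins, apelin, nitric oxide and prostanoids) 10 were tested and none was called in any comparison by limma or by limma voom, with 1, 5 and 1 at an unadjusted p under 0.05 in the 3 comparisons. The highest of them, the apelin receptor Aplnr, measured 144.71, 140.73 and 232.39 FPKM with the knockout label, 84.89, 83.37 and 180.58 FPKM among aged controls and 174.21, 159.16 and 197.04 FPKM among young controls. Replicate 3 was the highest library of both aged groups, as for Ednrb and Ramp3. In the third comparison limma and limma voom also called none of the tested endothelin pathway, adrenomedullin pathway and hypoxia genes, with 2, 0 and 4 at an unadjusted p under 0.05. There limma called 0.212% of all tested genes, and Calcrl, at rank 1286 of 11796 by p, had an unadjusted limma p of 0.0603.

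Adm is a known target of the hypoxia-inducible factors, and 23 of 24 listed genes of the hypoxia response were tested. In labelled knockout against aged control 4 rose and none fell, against a background of 2.78% called higher. The other tested genes of the list were not called there. Vegfa, the endothelial growth factor, measured 36.99, 33.17 and 32.04 FPKM with the knockout label and 22.12, 22.40 and 22.55 FPKM among aged controls (log2 difference 0.58 ± 0.0870 SE, limma adjusted p = 0.00706). Its young controls, at 28.06, 26.53 and 29.56 FPKM, lay between these groups. P4ha1, a collagen prolyl hydroxylase, measured 26.32, 22.48 and 19.72 FPKM with the knockout label and 13.51, 13.93 and 11.53 FPKM among aged controls (log2 difference 0.76 ± 0.124 SE, adjusted p = 0.0101). Its young controls, at 12.68, 14.90 and 14.73 FPKM, overlapped the aged controls, unlike those of Adm. The libraries labelled knockout and the aged controls did not overlap for either gene, and both calls held in all 9 fits that left out 1 library. Whether these genes and Adm share a cause was not tested. The glucose transporter Slc2a1 averaged 40.4 ± 5.72 and 22.7 ± 5.63 FPKM (adjusted p = 0.0288) and the glycolysis activator Pfkfb3 9.62 ± 1.46 and 5.96 ± 0.597 FPKM (adjusted p = 0.0253) in the same order, and each call was lost in 4 of 9 such fits, at an adjusted p of up to 0.12 and 0.0994.

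In aged against young controls 3 hypoxia genes fell and none rose, against a background of 2.8% called lower. Hif1a, which encodes the hypoxia-inducible subunit itself, averaged 59.7 ± 4.65 FPKM in aged and 94.8 ± 4.73 FPKM in young controls (log2 difference -0.66 ± 0.118 SE, limma adjusted p = 0.032). The histone demethylase Kdm3a averaged 8.12 ± 1.99 and 13.3 ± 0.516 FPKM (adjusted p = 0.0439), and Pfkfb3 5.96 ± 0.597 and 8.88 ± 0.450 FPKM (adjusted p = 0.0491). The Hif1a call was lost in 4 of 9 fits that left out 1 library (adjusted p up to 0.141), that of Kdm3a in 6 and that of Pfkfb3 in 7. After median-ratio scaling or quantile normalization 1 gene of the list fell in place of 3. Hif1a in the libraries labelled knockout averaged 83.5 ± 13.3 FPKM and did not pass against the aged controls (adjusted p = 0.0533). The list medians were 0.16 and -0.12, and the highest gene, the lactate dehydrogenase Ldha, passed in no comparison (adjusted p = 0.139, 0.502 and 0.269).

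**Figure D4:**
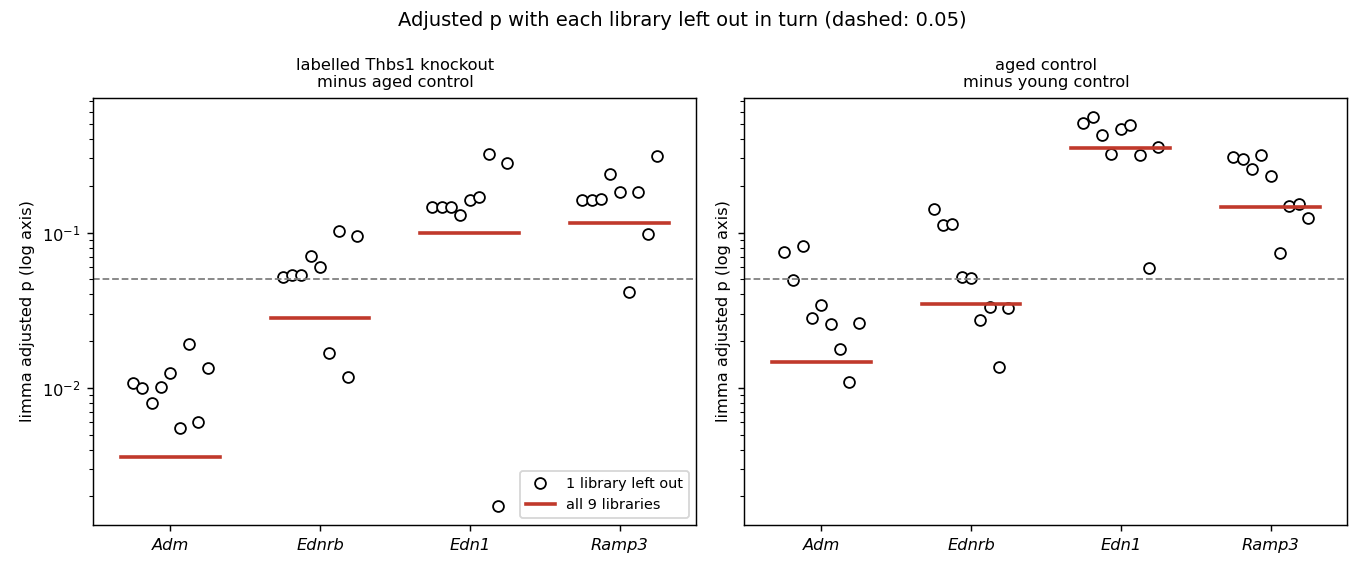
Limma adjusted p (log axis) of Adm, Ednrb, Edn1 and Ramp3 with all 9 libraries (line) and with each library left out in turn (open circles), for labelled knockout minus aged control at the left and aged minus young control at the right; the dashed line is 0.05. Adm stays under the line throughout at the left (0.00556 to 0.0193), Ednrb lies on both sides of it in both panels, and the lowest Edn1 point, 0.00175, is the fit without labelled knockout replicate 2.

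As a description over the 9 libraries, which share the group structure, Adm and Ednrb varied most alike among the members (Pearson r = 0.88 of log2(FPKM + 1)), followed by Ednrb and Ramp3 (r = 0.84). Ramp2 was negatively related to every other tested member, from r = -0.57 with Ednrb to r = -0.35 with Ramp3. The lowest value, r = -0.69, was that of Adm with Ramp1, which was close to the limit of detection. Among the 6644 other named genes whose mean reached 5 FPKM, the profile most like that of Adm was that of the immediate early transcription factor Egr2 (r = 0.97), then BC023105 and Nasp, a histone chaperone. Egr2 averaged 58.2, 19.1 and 41.8 FPKM in the libraries labelled knockout, aged controls and young controls. For Ednrb the closest were the kinase Stk10 (r = 0.97), the basement membrane gene Nid2, at 12.4, 3.12 and 10.3 FPKM, and the kinase Sgk1. For Ramp3 they were the protease Capn2 (r = 0.97), the surface protein Cd34, at 26.5, 10.9 and 22.4 FPKM, and Rflnb.

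The remaining tested members had other neighbours. For Edn1 they were Cstf3, Brd7 and Bnip2 (r = 0.93 to 0.94), and for Ece1 they were Aco1, the receptor gene Tgfbr2 and Gtf3c1 (r = 0.945 to 0.958). For Calcrl they were Golga5, Thoc1 and Cebpg (r = 0.98 to 0.99), and for Ramp2 they included Rpl22 and Mrpl52 (r = 0.96 each). The genes that reached r = 0.9 numbered 5 for Edn1, 8 for Ece1, 42 for Ednrb, 47 for Ramp2 and for Ramp3, 64 for Adm and 92 for Calcrl.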

How the data were processed

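The 9 libraries are mouse bone marrow endothelial RNA, 3 per group by title. Libraries were made with the SMART-Seq v4 kit, per the labels' protocols. The authors deposited 52183 genes as FPKM, rounded to 2 decimals. The submitters' processing notes list the tools FastQC 0.11.5, STAR and edgeR and the builds GRCm38 and mm10. How fragments were counted, strand included, was not given in the sources used. Every gene ID was found in GENCODE M21 (GRCm38), the source of coordinates and lengths. Depth was recovered from short genes (60 to 400 bases), where 99.5% to 99.8% of low values were whole fragments (tolerance 0.1). Fragments summed over all genes came to 105.7% to 106.0% of that depth. The reason for this excess was not tested, so recovered fragment counts are approximate.

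Values were tested as log2(FPKM + 1), pseudocount 1, with limma 3.58.1 in R 4.3.3: 1 fit of 9 libraries, a mean per group, eBayes with trend, and Benjamini-Hochberg adjustment over the 11796 genes that averaged 1 FPKM or more, threshold 0.05. Ramp shares were compared by exact permutation. The fit was tested on simulated data. Members, gene lists and tests were chosen with earlier results of these data known. Named were all 8 members, the called genes and the highest gene of each list, the genes of both ligand systems, Thbs1, and the 3 genes most correlated with each member, of which 1 is not reported here. Genes outside this rule (Vps25, Gm28863, Gm47118, Gm13012, Gm11978, Acta2, Myh11, Abcc9, Pdgfrb, Cspg4, Ptprc, Pde3b, Adcy3) were chosen after their values were seen. Alternatives were pseudocounts of 0.1 and 5, no filter, a filter of 5 FPKM, median-ratio and quantile scaling, 2-group fits, a replicate block, limma voom on recovered fragments, and leaving out each library. Figures used Python 3.11.15 and matplotlib 3.10.9.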

Additional observations from a re-analysis of the deposited data

How the results depend on the processing

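Of 375 alternative values of the 21 differences of single members, none reversed a call, 356 kept their side of the threshold, 17 lost a call (Ednrb and Adm) and 2 gained one (Edn1 and Ramp3). With 1 library left out, the members called numbered 1 to 3 for labelled knockout against aged control, 0 to 2 for aged against young and 0 for labelled knockout against young. Without the filter 1 member (Adm) was called in each of the first 2 comparisons, and in a fit of the compared groups alone 1 in the first. The count over all genes moved from 565, 471 and 25 to between 146 and 1159, 5 and 1039, and 11 and 31. Without the filter it was 146, 39 and 15, in fits of the compared groups alone 149, 716 and 31, and with the 5 FPKM filter 12 in the third. Without labelled knockout replicate 2 it was 1159 in the first and 1039 in the second, and without young control replicate 1 it was 5 in the second. Edn1 has no value under the 5 FPKM filter. Aged against young split into 141 higher and 330 lower as deposited, 238 and 196 after median-ratio scaling, and 160 and 199 after quantile normalization. Taken over many genes, the replicate numbers showed no common pairing of the libraries (correlations of same-numbered residuals from -0.129 to 0.124). Pairing for single genes was not tested. In labelled knockout against aged control the replicate block changed the SE from 0.34 to 0.237 for Ednrb, from 0.351 to 0.254 for Ramp3 and from 0.17 to 0.184 for Calcrl. With the replicate number as a block the calls over all genes were 400, 183 and 23, and the members called stayed at 2, 2 and 0.

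List counts moved as follows. In labelled knockout against aged control, the endothelin list had 0 calls without filter and in the 2-group fit and 1 after quantile normalization, the hypoxia list 2 in the first pair of settings, the endothelial markers 0 in the same pair, and the stromal markers 0 with a pseudocount of 5, without filter, with the replicate block and by limma voom. In aged against young, the endothelin list had 1 with a pseudocount of 0.1 and 0 with 5, without filter, under both scalings and with the block, the adrenomedullin list 0 without filter and 2 under both scalings, the hypoxia list 0 without filter and 1 under both scalings and the block, the vasoactive list 1 with a pseudocount of 5 and in the 2-group fit, the endothelial markers 0 and the stromal markers 1 without filter, and the smooth muscle markers 1 in the 2-group fit. In labelled knockout against young the stromal markers had 1 without filter. With 1 library left out, the counts ran from 0 to 5 for the endothelin list, 0 to 2 for the adrenomedullin list, 0 to 5 for the hypoxia list, 0 to 1 for the vasoactive and smooth muscle lists, 0 to 2 for endothelial and 0 to 4 for stromal markers. The cause of these shifts was not tested, except that no filter means 36202 genes tested. Ramp share differences kept within 1 SD of the value with all libraries. Edn1 and Ramp1 rest on few fragments, which limits their precision. Groups of 3 are too small for the test of single outlying libraries.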
